A study of Homo sapiens with 4 samples.

Results

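Small nuclear RNA (snRNA) and small nucleolar RNA (snoRNA) genes were examined for peaks of γH2AX, the form of the histone variant H2AX that is phosphorylated beside DNA double-strand breaks. The genes are all 1339 entries of biotype snRNA (149) or snoRNA (1190) among the 58419 RefSeq genes on chromosomes 1 to 22 and X of GRCh38.p14, whose positions are those of hg38. Each gene was widened by 500 bp on both sides, and a gene was counted as holding a peak when this window shared at least 1 bp with one. The measurements come from CUT&Tag, in which an antibody guides a transposase that cuts out and tags the DNA around a histone mark. HepG2, an established human liver cancer cell line, was assayed in 4 samples: mock-induced cells (titled DMSO) and lipid overload-induced cells (titled PAOA), each with the γH2AX antibody and each with control IgG. Each assay took 100000 cells and 14 PCR cycles. Only the γH2AX peak lists entered the work, and the 2 IgG libraries were not analysed here. The agent and length of the lipid treatment were not given in the sources used here.

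There is 1 library per group, so no difference between mock and lipid overload has a replicate check and no test was made. There were 8542 peaks in the mock list and 27296 in the lipid-overload list. The lipid-overload library held an estimated 2.62 times as many fragments. The median peak had 5 fragments over its summit, its highest point, in the mock list and 9 in the lipid-overload list. Because a deeper library yields more peaks, counts are also given for the lipid-overload peaks cut to the length of the mock list by their q-value. Intervals are at 95%, exact binomial for shares and exact Poisson for fragments, and they reflect counting error only, because copies made by PCR are not independent.

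snRNAs form the core of the spliceosome. U1, U2, U4, U5 and U6 act in the major spliceosome, and U11, U12, U4atac and U6atac act with U5 in the minor spliceosome, which removes a rare class of introns. U7 guides the 3′ end processing of replication-dependent histone messages, and 7SK holds the elongation factor P-TEFb inactive. These genes have compact promoters of their own and are transcribed by RNA polymerase II, except U6, U6atac and 7SK, which use RNA polymerase III. snoRNAs guide 2′-O-methylation (box C/D, symbols SNORD) or pseudouridylation (box H/ACA, symbols SNORA), mostly of ribosomal RNA. Most human snoRNAs lie in introns of a host gene, are transcribed from the host's promoter and are released when the intron is spliced. Many hosts encode ribosomal proteins or translation factors, and others are noncoding genes such as GAS5, ZFAS1 and the SNHG genes.

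The sequences at 5 of the marked loci are shown: an snRNA gene that overlaps the start region of a coding gene, and host promoters whose peaks reach the window of an intronic snoRNA. RNU7-1, the gene of U7 snRNA, is 63 bases long and lies at chr12:6943816-6943878 within the coding gene C12orf57. Its sequence was read from the RefSeq promoter window of C12orf57, on the strand of C12orf57, and the capitals mark the letters AATTTGTCT (bases 21 to 29), the place where U7 binds its ring of Sm and LSm proteins. These letters occur on either strand in 77 of 35116 promoter windows of the table (0.219%).
RNU7-1: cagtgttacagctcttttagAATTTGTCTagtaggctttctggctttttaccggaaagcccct
The host promoters run from 250 bases before to 50 bases after the annotated start on the host's own strand, and the capitals mark the first 10 transcribed bases. SNHG29 lies at chr17:16438737-16439036 on the plus strand and hosts SNORD49B, SNORD49A and SNORD65. ZFAS1 lies at chr20:49278392-49278691 on the plus strand and hosts SNORD12C, SNORD12B and SNORD12. SNHG19 lies at chr16:2155309-2155608 on the minus strand and hosts SNORD60. SNHG1 lies at chr11:62855836-62856135 on the minus strand and hosts 8 named snoRNAs, of which SNORD25 is the one with a peak. All positions are GRCh38.p14.
SNHG29: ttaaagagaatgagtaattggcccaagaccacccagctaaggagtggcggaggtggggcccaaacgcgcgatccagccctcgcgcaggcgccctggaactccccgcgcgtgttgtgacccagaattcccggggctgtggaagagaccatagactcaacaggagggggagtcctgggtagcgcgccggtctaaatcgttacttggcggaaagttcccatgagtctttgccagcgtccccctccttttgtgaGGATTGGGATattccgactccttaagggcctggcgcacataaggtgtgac
ZFAS1: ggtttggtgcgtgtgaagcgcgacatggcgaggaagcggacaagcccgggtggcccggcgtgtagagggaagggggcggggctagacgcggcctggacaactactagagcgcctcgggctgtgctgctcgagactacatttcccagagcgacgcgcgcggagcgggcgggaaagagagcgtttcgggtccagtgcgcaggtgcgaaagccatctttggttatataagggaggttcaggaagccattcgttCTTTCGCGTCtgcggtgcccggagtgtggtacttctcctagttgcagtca
SNHG19: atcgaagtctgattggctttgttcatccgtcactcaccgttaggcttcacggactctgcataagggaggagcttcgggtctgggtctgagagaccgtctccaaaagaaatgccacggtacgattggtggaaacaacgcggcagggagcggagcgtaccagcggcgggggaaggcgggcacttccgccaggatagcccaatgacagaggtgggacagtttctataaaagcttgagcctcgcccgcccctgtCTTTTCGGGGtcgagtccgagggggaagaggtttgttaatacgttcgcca
SNHG1: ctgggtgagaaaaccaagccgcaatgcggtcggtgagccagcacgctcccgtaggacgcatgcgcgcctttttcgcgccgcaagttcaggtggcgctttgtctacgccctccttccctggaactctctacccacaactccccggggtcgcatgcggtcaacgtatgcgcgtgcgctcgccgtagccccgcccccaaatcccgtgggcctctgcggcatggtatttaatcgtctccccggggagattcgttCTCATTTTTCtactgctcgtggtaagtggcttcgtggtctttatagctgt
These windows are rich in G and C (58.7%, 62%, 57% and 60% in the order shown) and hold 19, 30, 23 and 30 CpG dinucleotides. ZFAS1 and SNHG19 begin with a C followed by at least 4 bases that are each C or T, the shape of the 5′ terminal oligopyrimidine start of ribosomal protein genes. SNHG29 and SNHG1 do not begin with these letters.

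γH2AX peaks were found at few of the small RNA genes, and the RNU genes stood out among them. In the mock list 18 of 1339 genes held a peak (1.34%, interval 0.799 to 2.12), against 0.41% of the same windows at shuffled positions. In the lipid-overload list 43 did (3.21%, interval 2.33 to 4.30), against 1.37% of shuffled windows. Over 100 shuffles the number of windows with a peak ranged from 0 to 13 in the mock list and from 7 to 29 in the lipid-overload list. Shuffled windows were moved within their chromosome and do not allow for open chromatin or gene promoters. With the lipid-overload list at the length of the mock list, 24 genes held a peak (1.79%), against 0.472% of shuffled windows.

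Of the genes with a peak, 12 were found in both lists, 31 in the lipid-overload list only and 6 in the mock list only. In 11 of the 12, the peaks of both lists overlapped. RNU2-63P was the exception, with its mock peak on one side of the gene and its lipid-overload peak on the other. It is a U2 entry of biotype snRNA whose symbol ends in the P of a pseudogene. The ratio of lipid-overload to mock summit fragments had an interval that held the depth ratio of 2.62 at 11 of the 12. Of the 31 genes called in the lipid-overload list only, 23 had fewer than 14 fragments, the number to which the mock median of 5 scales at the depth of the lipid-overload library. The upper quartile of all lipid-overload peaks was 13 fragments, so most peaks of that list lay under 14 as well. The count of 23 is thus not particular to these genes.

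**Figure D1:**
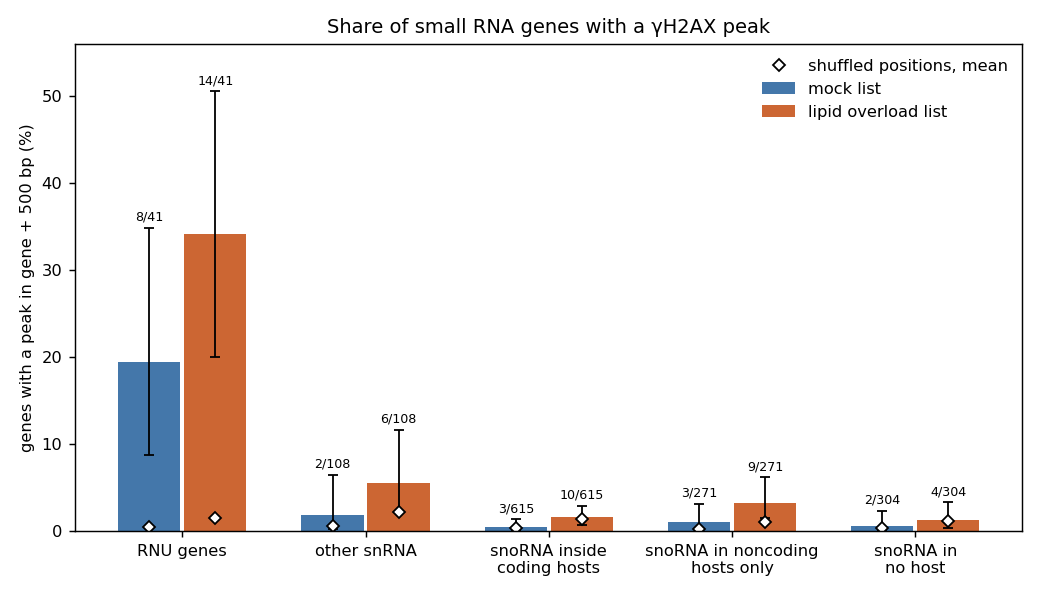
Share of genes with a γH2AX peak in the gene plus 500 bp (percent), by class and peak list; bars are shares, error bars exact binomial 95% intervals, diamonds the mean over shuffled positions, and the fractions above give the genes with a peak over all genes of the class. The RNU genes reach 19.5% and 34.1%, while snoRNA genes inside coding hosts stay at 0.488% and 1.63%, beside the diamonds.

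The 41 RNU genes encode the spliceosomal and U7 snRNAs. In the mock list 8 held a peak (19.5%, interval 8.82 to 34.9; 0.561% of shuffled windows), and in the lipid-overload list 14 did (34.1%, interval 20.1 to 50.6; 1.49% of shuffled windows). Of these, 5 were marked in both lists, 9 in the lipid-overload list only and 3 in the mock list only. At equal list lengths the lipid-overload count was 7 (17.1%), against 0.585% of shuffled windows and below the mock count of 8. The RNU genes were therefore marked far above shuffled positions in both libraries, while the larger lipid-overload count went with the longer list. Of coding genes, 14% (mock) and 45.5% (lipid overload) held a peak within 1 kb of an annotated start, a wider window. At equal list lengths 27.8% did. The RNU shares in the lipid-overload list were thus not above those of coding gene starts, and marking above shuffled positions is not particular to RNU genes.

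The minor spliceosome genes were often marked, though they are few. All 4 held a lipid-overload peak (interval 39.8 to 100; 1.5% of shuffled windows). In the mock list 3 held one (interval 19.4 to 99.4; 1% of shuffled windows). At equal list lengths the lipid-overload count was 2 (50%; 1.25% of shuffled windows). RNU6ATAC (chr9:134164439-134164564) had 13 fragments over the summit in the mock list (interval 6.92 to 22.2) and 29 in the lipid-overload list (interval 19.4 to 41.6), the highest values of any RNU gene. RNU11 (chr1:28648600-28648734), which lies within the noncoding gene TAF12-DT, had 8 and 12, under peaks within 1 kb of an end of the coding gene TAF12. RNU4ATAC (chr2:121530880-121531009), which lies within the coding gene CLASP1, had 7 and 10. RNU12 (chr22:42615244-42615393) had 17 fragments in the lipid-overload list and no mock peak. Its peak reaches onto the gene and lies within 1 kb of an end of the coding gene POLDIP3. RNU6ATAC lies within the noncoding gene LOC124902297, whose listed start is 7461 bp away. RNU4ATAC also lies within the noncoding gene CLASP1-AS1, and the nearest listed start is that of CLASP1, 118453 bp away. No listed start of a coding or long noncoding gene thus lies within 1 kb of either. Starts are not listed for every gene, so a nearer start could be missing.

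Among the 5 U5 genes, 2 were marked in each list (0.4% of shuffled windows in the mock list and 0.6% in the lipid-overload list). RNU5E-1 (chr1:11908152-11908272) had 10 fragments in the mock list and 17 in the lipid-overload list. RNU5A-1 and RNU5B-1 are neighbours on chromosome 15. RNU5B-1 held a mock peak of 6 fragments and no lipid-overload peak. RNU5A-1 held a lipid-overload peak of 11 fragments and no mock peak. RNU5D-1 and RNU5F-1 held none in either list. The family count was thus the same in both lists, and 1 of its genes, RNU5E-1, was marked in both.

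U4, U6 and U7 were marked in the lipid-overload list only, each at 1 gene (2%, 1.2% and 1% of shuffled windows). At equal list lengths the U4 count was 1 and those of U6 and U7 were 0. Their marking in that list only thus went with its length for U6 and U7. RNU4-2 (chr12:120291759-120291903), the major U4 gene, had 20 fragments, the second highest lipid-overload value of an RNU gene. It lies 286 bp from a start of the coding gene SIRT4, and the peak lies within 1 kb of an end of SIRT4. The neighbouring gene RNU4-1 held none, and its nearest lipid-overload peak, 1383 bp away, was that of RNU4-2. RNU6-2, 1 of the 5 U6 genes, had 10 fragments with the summit 10 bp from the gene, and it lies 399 bp from a start of the coding gene TMEM259. RNU6-7 missed by distance, with a lipid-overload peak of 5 fragments 755 bp away. RNU7-1, whose sequence is shown above, had 15 fragments with the summit 296 bp from the gene. The C12orf57 start lies between them, 144 bp from RNU7-1, so this peak is also one at the start of a coding gene.

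Of the 3 members of the U2 family, 1 was marked in the mock list and 2 in the lipid-overload list (1.33% and 2.67% of shuffled windows). RNU2-63P had 5 fragments in the mock list and 11 in the lipid-overload list, and it lies 92 bp from a start of the noncoding gene LOC105374852. Its lipid-overload peak covers a start of LOC105374852. RNU2-1 (chr17:43233790-43233977) had 6 fragments in the lipid-overload list. RNU2-2 held no peak in either list, the nearest being 9346 bp (mock) and 9378 bp (lipid overload) away. RNU2-1 lies in the region of 17q21 where U2 genes stand in a tandem array, and predicted snRNA genes of that region carried more fragments, as described next.

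U1 was the largest RNU family, with peaks at 2 of 21 genes in the mock list and 3 in the lipid-overload list. Of shuffled windows, 0.476% and 1.57% held one. RNU1-1 (chr1:16514122-16514285), 1 of the 4 classical U1 genes at 1p36, had 8 fragments in the lipid-overload list, and RNU1-2, RNU1-3 and RNU1-4 held no peak. Among the U1 variant genes of chromosome 1, RNVU1-8 and RNVU1-14 had 8 and 6 fragments in the lipid-overload list, and RNVU1-6 and RNVU1-3 had 5 and 3 in the mock list. No U1 gene was marked in both lists, and all 5 peaks were low. Copies of U1 and U2 are nearly identical, so reads from one copy can be placed on another or discarded. How such reads were handled is not given in the sources used here, and their part in these counts was not tested. Without U1, 6 of 20 RNU genes were marked in the mock list (30.0%, interval 11.9 to 54.3; 0.65% of shuffled windows). In the lipid-overload list 11 were (55.0%, interval 31.5 to 76.9; 1.4% of shuffled windows). At equal list lengths the lipid-overload count was 6 (30%; 0.65% of shuffled windows), the same as in the mock list.

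**Figure D2:**
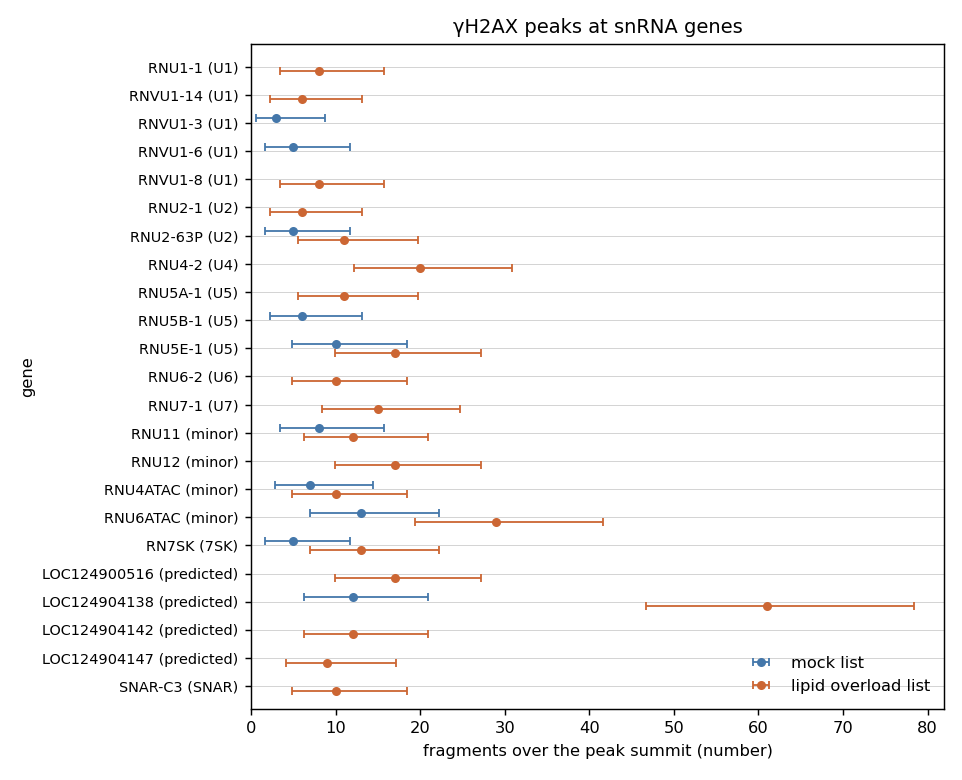
Fragments over the peak summit at every snRNA gene with a peak in either list; points are fragment numbers, bars exact Poisson 95% intervals, and a missing point means no peak in that list. The RNU genes lie between 3 and 13 fragments in the mock list and between 6 and 29 in the lipid-overload list, and the predicted gene LOC124904138 reaches 61.

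Most of the peaks lay in the widened part of the windows, which is longer than the RNU genes themselves. In the lipid-overload list 4 of the 14 touched the gene itself (RNU1-1, RNVU1-14, RNU6-2 and RNU12), and in the mock list 1 of 8 did (RNVU1-6). The summit lay a median of 252.5 bp from the gene in the lipid-overload list (range 0 to 464) and 273 bp in the mock list (range 0 to 435). With no widening, 1 RNU gene was marked in the mock list and 4 in the lipid-overload list. Over all positions of the chromosomes, the lipid-overload share was 0.369% with no widening and 1.38% at 500 bp. In the mock list these shares were 0.102% and 0.423%. A lower share without widening is thus not particular to RNU genes. Widening to 250 bp brought 7 and 13, and 500 bp brought 8 and 14. Farther out the counts were 9 and 17 at 2000 bp, 10 and 19 at 5000 bp, and 15 and 26 at 10000 bp. Over all positions the mock shares at these widths were 1.37%, 3.22% and 6.07%. The lipid-overload shares were 4.27%, 9.42% and 16.2%. A rise with distance is thus not particular to RNU genes either. The strand of the snRNA genes is not in the tables used here, so upstream and downstream could not be told apart.

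Peaks at RNU genes were not restricted to those near a listed start of another gene, though starts are not listed for every gene. Of the 32 RNU genes with no annotated start within 1 kb, 6 were marked in the mock list (18.8%, against 0.5% of shuffled windows). In the lipid-overload list 9 were (28.1%, interval 13.7 to 46.7, against 1.34% of shuffled windows). Of the 9 with such a start, 2 and 5 held a peak (0.778% and 2% of shuffled windows). Leaving out the 8 RNU genes whose window lies within 1 kb of an end of a coding gene left 7 of 33 marked in the mock list and 9 of 33 in the lipid-overload list.

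**Figure D3:**
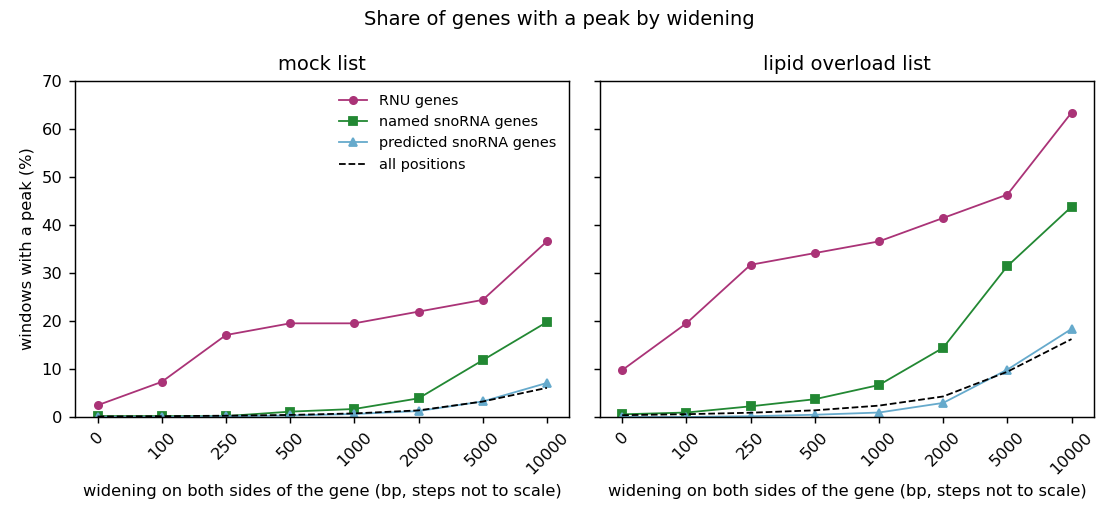
Share of genes with a γH2AX peak (percent) as the window grows from the gene alone to 10000 bp on both sides, in the mock (left) and lipid-overload (right) list; lines are RNU genes, named snoRNA genes, predicted snoRNA genes and, dashed, all positions of the chromosomes. RNU genes reach 31.7% within 250 bp in the lipid-overload list and 63.4% within 10000 bp, where the dashed line is at 16.2%. Named snoRNA genes gain most of theirs beyond 1000 bp, as do all positions. Predicted snoRNA genes follow the dashed line or lie below it.

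The other 108 snRNA genes comprise RN7SK, the SNAR genes and 79 predicted genes. Of these 108, 2 held a peak in the mock list (1.85%, against 0.676% of shuffled windows). In the lipid-overload list 6 did (5.56%, interval 2.07 to 11.7, against 2.22% of shuffled windows). RN7SK (chr6:52995620-52995951), the gene of 7SK, had 5 fragments in the mock list and 13 in the lipid-overload list. Both peaks cover an annotated start of the coding gene GSTA4, 336 bp from RN7SK, so the data do not tell which of these genes the peak belongs to. SNAR-C3, 1 of 28 SNAR genes, which encode primate-specific short RNAs bound by NF90, had 10 fragments in the lipid-overload list.

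The small RNA gene with the most lipid-overload fragments was LOC124904138 (chr17:43251829-43252019), a predicted snRNA gene in the same region as RNU2-1. It had 12 fragments in the mock list (interval 6.2 to 21) and 61 in the lipid-overload list (interval 46.7 to 78.4). These peaks rank 207 and 46 in their lists. The ratio of 5.08 (interval 2.71 to 10.4) was the one whose interval lay above the depth ratio of 2.62. Its neighbours LOC124904142 and LOC124904147 had 12 and 9 fragments in the lipid-overload list and no mock peak. In a tandem array the fragments of several copies can be placed on 1 copy, and an array can be longer in a cell line than in the reference genome. The part of either in this peak was not tested. LOC124900516, a predicted gene within C2orf92, had 17 fragments in the lipid-overload list under a peak that covers a start of ACTR1B.

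snoRNA genes were marked less often than RNU genes, and the named ones more often than the predicted ones. Of 1190 snoRNA genes, 8 held a mock peak (0.672%; 0.381% of shuffled windows) and 23 a lipid-overload peak (1.93%, interval 1.23 to 2.89; 1.29% of shuffled windows). Inside coding hosts, 3 of 615 were marked in the mock list (0.488%, near the 0.424% of shuffled windows). In the lipid-overload list 10 were (1.63%, interval 0.782 to 2.97, against 1.40% of shuffled windows). At equal list lengths 2 remained in the count (0.325%), against 0.465% of shuffled windows. The named genes among them held all of these peaks, 3 of 317 in the mock list (0.946%, against 0.473% of shuffled windows). In the lipid-overload list 10 of 317 held one (3.15%, interval 1.52 to 5.72, against 1.5% of shuffled windows). At equal list lengths 2 of 317 did (0.631%, against 0.486% of shuffled windows). None of the 298 predicted genes inside coding hosts held a peak in either list. Outside coding hosts, 5 of 575 were marked in the mock list (0.87%, against 0.334% of shuffled windows). In the lipid-overload list 13 were (2.26%, interval 1.21 to 3.84, against 1.17% of shuffled windows). At equal list lengths 10 were (1.74%, against 0.395% of shuffled windows).

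Over all hosts, 20 of 541 named snoRNA genes held a lipid-overload peak (3.70%, interval 2.27 to 5.65; 1.42% of shuffled windows). The snoRNA genes outside coding hosts fall into those in noncoding hosts and those in none. Of 271 in noncoding hosts only, 3 were marked in the mock list (1.11%; 0.325% of shuffled windows) and 9 in the lipid-overload list (3.32%; 1.13% of shuffled windows). Of 304 in no annotated host, 2 were marked in the mock list (0.658%; 0.342% of shuffled windows) and 4 in the lipid-overload list (1.32%; near the shuffled share). Among the 183 named genes in noncoding hosts, those whose gene lies within 1 kb of an annotated start account for most peaks. In the mock list 3 of 13 were marked (0.231% of shuffled windows). In the lipid-overload list 7 of 13 were (53.8%, interval 25.1 to 80.8; 1.15% of shuffled windows). Of the 169 farther from a start, none held a mock peak, which by the limit of 3 counts that a count of 0 allows is a share of up to 1.78%, and 2 held a lipid-overload peak (1.18%, near the share of shuffled windows). Named snoRNAs inside coding hosts did not follow this split: 1 of 19 near a start was marked in the lipid-overload list (5.26%, interval 0.133 to 26.0) and 9 of 287 farther away (3.14%; 1.55% of shuffled windows).

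SNORD49B, in SNHG29, had 34 fragments in the mock list (interval 23.5 to 47.5) and 59 in the lipid-overload list (interval 44.9 to 76.1), the highest values at a snoRNA gene in both. The peaks cover the SNHG29 start in the sequence shown above, and their summits lie 633 and 602 bp from SNORD49B. SNORD12C, in ZFAS1, had 12 and 30 fragments, again with both peaks over the start of ZFAS1, and these lie within 1 kb of an end of the coding gene ZNFX1. SNORD74, in GAS5, had 12 and 37, under peaks within 1 kb of an end of ZBTB37, whose start lies under the lipid-overload peak. The GAS5 start lies under neither peak. GAS5 holds 11 named snoRNA genes, ZFAS1 and SNHG29 hold 3 each, and in all of these hosts the marked gene was 1 of them. At SNHG29 and ZFAS1 the peaks thus lay at the host's start and reached the window of 1 snoRNA gene, not the others.

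Further noncoding hosts were reached in the lipid-overload list only. SNORD60 in SNHG19 had 34 fragments, under a peak within 1 kb of an end of the coding gene TRAF7. The start of SNHG19 lies just outside that peak. SNORD25 in SNHG1 had 17 fragments. The SNORD25 peak covers a start of the coding gene SLC3A2, and the start of SNHG1 lies just outside it. SNORA78 in SNHG9 and SNORD104 in SNHG25 each had 13 fragments, and SNORA50C, which lies in no annotated host, shares the SNORD104 peak. SNORA24 in SNHG8 had 12 and SNORA26 in DANCR had 8. Among the genes in no host, LOC124900430 had 9 fragments in the mock list and 29 in the lipid-overload list near an end of FBXL12, and LOC124904795 had 22 in the lipid-overload list near an end of DNAAF3. LOC124900339 had 6 near an end of SAP18, and LOC124900264 had 3 in the mock list. In 34 snoRNA genes outside coding hosts the window lies within 1 kb of an end of a coding gene. Of these, 11 held a lipid-overload peak (32.4%; 1.82% of shuffled windows). Of the 541 others 2 did (0.370%, interval 0.0448 to 1.33), below the 1.13% of shuffled windows, which lies within the interval.

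**Figure D4:**
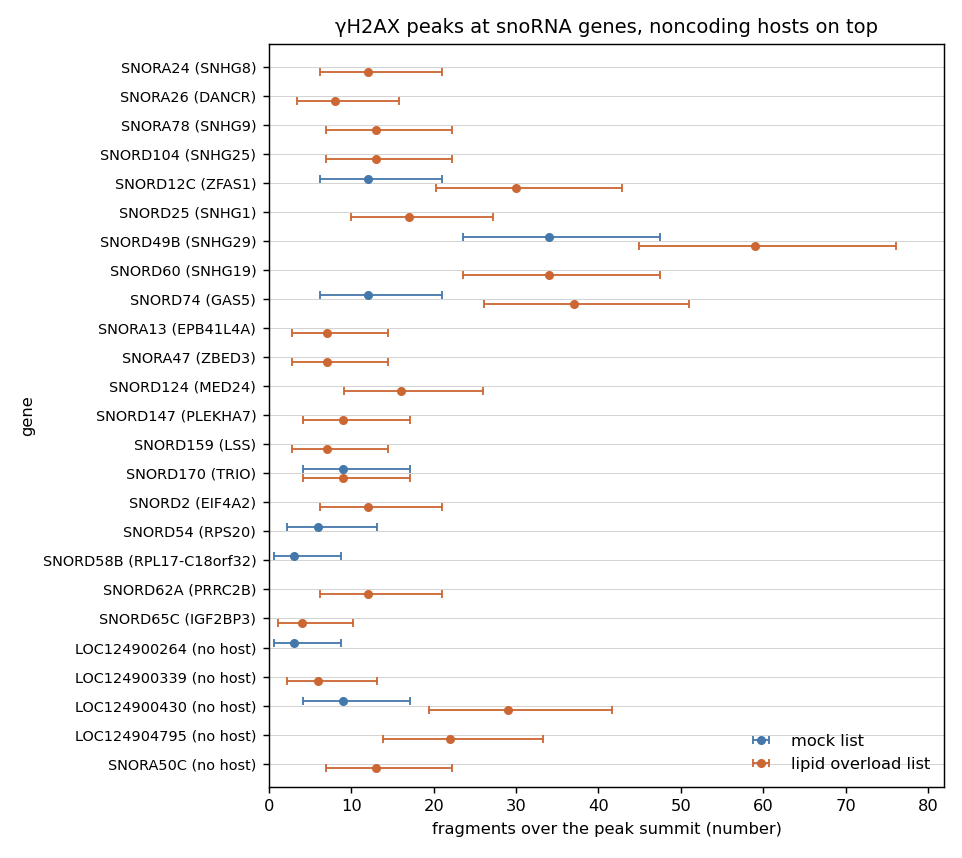
Fragments over the peak summit at the snoRNA genes with a peak in either list, 1 of them left out, with the host in brackets, noncoding hosts on top, then coding hosts, then no host; points are fragment numbers, bars exact Poisson 95% intervals, and a missing point means no peak in that list. SNORD49B in SNHG29 reaches 34 and 59 fragments, while no gene in a coding host exceeds 16.

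Inside coding hosts the peaks were low and scattered. SNORD170, in TRIO, was the 1 gene of this class marked in both lists, with 9 fragments in each. SNORD124 in MED24, a Mediator subunit gene, had 16 in the lipid-overload list, the highest of the class. SNORD2 in EIF4A2, a translation initiation factor gene, and SNORD62A in PRRC2B had 12 each. SNORD147 in PLEKHA7 had 9, and SNORA47 in ZBED3, SNORA13 in EPB41L4A and SNORD159 in LSS had 7 each. SNORD65C in IGF2BP3 had 4. In the mock list only, SNORD54 in RPS20 had 6 and SNORD58B in RPL17 had 3. Summit fragments at coding hosts thus ran from 3 to 16, around the medians of the lists.

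The snoRNA windows were set beside the rest of their hosts. When each coding host of a named snoRNA was split into stretches of 1104 bp, the median length of the windows, 0.909% of the stretches with no start within 1 kb held a lipid-overload peak, or 2.76% when each host is weighted by its snoRNA genes. The snoRNA windows in that position held one in 8 of 275 (2.91%, interval 1.26 to 5.65), above the first share and close to the weighted one. With a start within 1 kb, 2 of 31 windows held one (6.45%, interval 0.791 to 21.4), against 15.9% of stretches, or 24.4% weighted. In the mock list the values far from starts were 0.313% of stretches, 0.349% weighted, and 1 of 275 windows (0.364%).

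By box class, 6 of 238 C/D genes outside the large arrays were marked in the mock list (2.52%, against 0.517% of shuffled windows). In the lipid-overload list 14 were (5.88%, interval 3.25 to 9.67, against 1.63% of shuffled windows). Of 182 H/ACA genes, none was marked in the mock list, a share of up to 1.65%, and 6 were in the lipid-overload list (3.30%, interval 1.22 to 7.04; 1.42% of shuffled windows). At equal list lengths the counts were 8 C/D genes (3.36%; 0.542% of shuffled windows) and 2 H/ACA genes (1.10%; 0.505% of shuffled windows). The intervals of both classes overlap. None of the 119 genes of the 3 imprinted arrays (48 SNORD115, 30 SNORD116 and 41 of the 14q32 arrays) held a peak in either list, a share of up to 2.52%, both by the same limit of 3 counts, against 1.00% of shuffled windows in the lipid-overload list. The 649 predicted snoRNA genes were marked in 2 and 3 cases. Their mock share was 0.308%, near the 0.347% of shuffled windows. Their lipid-overload share (0.462%, interval 0.0954 to 1.34) was below that of shuffled windows (1.17%), which lies within the interval.

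The snoRNA genes that have promoters of their own, as snRNA genes do, held no peak in either list. They are the 5 U3 genes SNORD3A, SNORD3B-1, SNORD3B-2, SNORD3C and SNORD3D, the U8 gene SNORD118 and the U13 gene SNORD13. U3 and U8 act in the cleavage of ribosomal RNA precursors. The nearest lipid-overload peak lay 2554 bp from SNORD118, 16349 bp from SNORD13 and at least 38951 bp from the U3 genes. Of shuffled snoRNA windows, 0.381% held a peak in the mock list and 1.29% in the lipid-overload list. With so few genes, finding no peak cannot be told apart from these shares.

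The starts of the host genes were marked far more often than the snoRNA genes within them. Of 180 coding hosts of named snoRNAs with an annotated start, 38 held a mock peak within 1 kb of a start (21.1%, interval 15.4 to 27.8) and 121 a lipid-overload peak (67.2%, interval 59.8 to 74.0). Among all coding genes the shares were 14% and 45.5%. At equal list lengths 80 hosts were called (44.4%, interval 37.1 to 52.0), against 27.8% of all coding genes. A gene with more annotated starts has more chances to be counted, and the number of starts was not matched. Of 26 noncoding hosts of named snoRNAs, 5 were marked there in the mock list (19.2%, interval 6.55 to 39.4) and 18 in the lipid-overload list (69.2%, interval 48.2 to 85.7), against 5.45% and 17.2% of all long noncoding genes. Hosts of predicted snoRNAs were also above these shares in the lipid-overload list. They were marked in 137 of 247 coding (55.5%, interval 49.0 to 61.8) and 17 of 54 noncoding cases (31.5%, interval 19.5 to 45.6).

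Several noncoding hosts held a lipid-overload peak at the start that reached none of their snoRNA windows. STARD7-AS1 had 19 fragments, SNHG30 and SNHG31 had 18 each, SNHG12 had 16 and SNHG11 had 14. LINC03006 had 13 in the mock list and 15 in the lipid-overload list, and SNHG18 had 6 and 10. SNHG14, the long host of the SNORD115 and SNORD116 arrays, held none at its annotated starts in either list. SNHG16 and SNHG17 held none either. These noncoding hosts were chosen for naming after their values were seen.

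**Figure D5:**
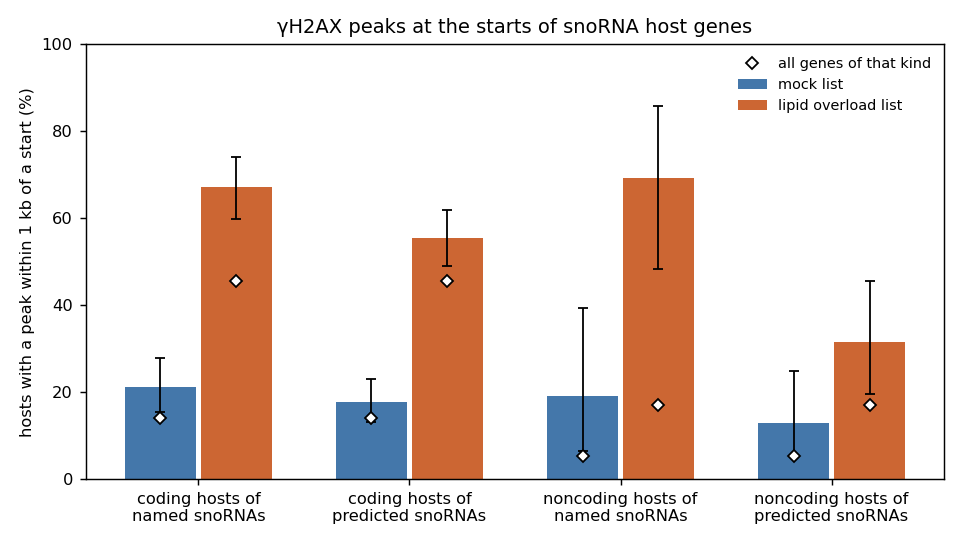
Share of snoRNA host genes with a γH2AX peak within 1 kb of an annotated start (percent), by host type, snoRNA type and peak list; bars are shares, error bars exact binomial 95% intervals and diamonds the share among all coding or all long noncoding genes. Hosts of named snoRNAs reach 67.2% (coding) and 69.2% (noncoding) in the lipid-overload list, above the diamonds at 45.5% and 17.2%. Hosts of predicted snoRNAs, at 55.5% and 31.5%, also lie above them.

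The pyrimidine start seen at ZFAS1 and SNHG19 was common among hosts of named snoRNAs. A C at the first base followed by 4 bases that are each C or T, on the strand of the gene, occurred at a start of 36 of 180 coding hosts (20.0%) and 6 of 26 noncoding hosts (23.1%), against 1402 of 27195 genes with a start in the table (5.16%). Hosts of predicted snoRNAs had it in 14 of 247 coding cases (5.67%). Among the coding hosts of named snoRNAs it was present at 23 of the 121 with a lipid-overload start peak (19.0%) and at 10 of the 38 with a mock start peak (26.3%). Among those of predicted snoRNAs it was present at 8 of 137 (5.84%) and 7 of 44 (15.9%). All 6 noncoding hosts with it were among the 18 with a lipid-overload start peak, and 2 were among the 5 with a mock start peak.

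Other short RNA genes were widened in the same way. Of 429 tRNA genes, 3.26% held a peak in the mock list and 13.1% in the lipid-overload list (56 genes, interval 10.0 to 16.6). Of 1911 miRNA genes, 2.3% and 7.54% did (144 genes in the lipid-overload list, interval 6.39 to 8.81). Of 29 ribosomal RNA genes, 2 and 6 did. In the full lists the intervals of the RNU genes lay above those of the tRNA and miRNA genes, and that of all snoRNA genes lay below both in the lipid-overload list. At equal list lengths the lipid-overload shares were 17.1% for RNU genes (interval 7.15 to 32.1), 5.83% for tRNA genes (interval 3.81 to 8.48), 3.14% for miRNA genes (interval 2.40 to 4.02) and 20.7% for ribosomal RNA genes (interval 7.99 to 39.7). There the intervals of RNU and tRNA genes overlap, and the ribosomal RNA share is the highest. The tRNA and snRNA counts include clusters of similar copies, which share the limit on read placement.

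The genes of the proteins that make and carry these RNAs were scored by a peak within 1 kb of either end, which can also lie at a neighbouring gene. Of 86 listed genes, 20 held a mock peak (23.3%, interval 14.8 to 33.6) against 13.4% of all coding genes. In the lipid-overload list 70 did (81.4%, interval 71.6 to 89.0) against 43.4%, and at equal list lengths 46 did (53.5%, interval 42.4 to 64.3) against 25.9%. All 20 genes marked in the mock list were also marked in the lipid-overload list, 18 of them with overlapping peaks. Values given for both lists below are for the overlapping peak unless stated.

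Among the 17 genes of snRNA gene transcription, 6 held a peak in the mock list and all 17 in the lipid-overload list. ELL, whose product is a subunit of the little elongation complex at snRNA genes, had 61 and 116 fragments. These were the highest values among the 86 listed genes, not among all peaks. ICE1, another subunit of that complex, had 18 and 43, and ICE2 had 6 and 7. ZC3H8, also of the complex, had 7 and 20. ZNF143, an activator of snRNA genes, had 11 and 40, and SNAPC2, a subunit of the snRNA-activating protein complex, had 8 and 20 in neighbouring peaks that do not overlap. TBP, SNAPC4 and POU2F1 had 23, 23 and 15 in the lipid-overload list and no mock peak.

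Integrator, the complex that cleaves the 3′ ends of snRNA transcripts, was marked at 3 of 14 subunit genes in the mock list and at 12 in the lipid-overload list. INTS11, the catalytic subunit, had 11 and 20 fragments, and INTS9 had 4 and 18. INTS6 had 6 and 17 in peaks that do not overlap. INTS3, INTS10 and INTS14 had 23, 20 and 14 in the lipid-overload list only. INTS2 and INTS12 held none. Of the 7 genes of 7SK partners, none held a peak in the mock list and 6 in the lipid-overload list, led by MEPCE, the 7SK capping enzyme, with 24 fragments. HEXIM2, an inhibitor of P-TEFb bound to 7SK, had 18 and CCNT1, a cyclin of P-TEFb, had 15. CDK9, the kinase of P-TEFb, held none.

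Of 16 genes of Sm and LSm proteins, which form the ring on snRNAs, 4 held a peak in the mock list and 13 in the lipid-overload list. SNRPD2 had 15 and 35 fragments, LSM2 had 8 and 22, SNRPD1 had 7 and 13, and SNRPE had 6 and 9. LSM5, LSM3 and LSM4, of the ring on U6, had 31, 29 and 27 in the lipid-overload list only. Of 15 genes of the SMN complex and snRNA export, 2 and 11 held one, with GEMIN7 at 7 and 20 and STRAP at 5 and 11. NCBP1 and NCBP2, the subunits of the nuclear cap-binding complex, had 14 and 13 in the lipid-overload list only, and the helicase gene DDX20 had 11.

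Protein genes of both snoRNA box classes were listed. Of 11 genes of box C/D particles and their assembly, 4 held a peak in the mock list and 9 in the lipid-overload list. FBL, the methyltransferase fibrillarin, had 7 and 13 fragments, PIH1D1 had 10 and 27, RPAP3 had 5 and 18, and RUVBL1 had 5 and 10. RUVBL2 had 19 in the lipid-overload list only, and the core protein genes NOP58 and NOP56 had 8 and 7. Of 6 genes of box H/ACA particles, 1 and 2 did: NHP2, a core protein, had 9 and 19, and DKC1, the pseudouridine synthase dyskerin, had 21 in the lipid-overload list. The share in box H/ACA genes (33.3%, interval 4.33 to 77.7) overlaps that of box C/D genes (81.8%, interval 48.2 to 97.7).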

How the data were processed

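γH2AX was mapped by CUT&Tag in HepG2 cells, and the groups were taken from the sample titles and treatments. The submitters' processing notes name build hg38 and the tools BWA, MACS2 2.1.2, FastQC and deepTools. Settings, the read-mapping filter and any use of IgG in calling were not given in the sources used here. Peaks were called per sample. The score, the fold (a linear ratio at the summit), and the −log10 p and −log10 q of each peak are the authors' own deposited values. Here they rank peaks inside each list and yield fragment numbers.

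The deposited fold and −log10 p were solved for whole fragments over the summit under the formulas of MACS2, and 100% of peaks came out whole within 0.0001 in log10 p. The local background gave fragment lengths of 137 bp (mock) and 124 bp (lipid overload) and the depth ratio. The step was tested on simulated data.

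The RefSeq table lists 1355 snRNA and snoRNA genes. Of these, 11 lie over 1 Mb out of order in the table, like genes of other scaffolds, and 5 are on Y or unplaced. They were left out. A host holds the whole snoRNA gene. Starts came from the RefSeq promoter table (GRCh38.p14), which was not used for chromosome 8, so 46 genes have no distance to a start. It holds coding and long noncoding genes, so the planned search for octamer and TATA motifs in snRNA promoters was not run.

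Windows were shuffled 100 times on their own chromosome, across 1 Mb bins with at least 1 gene or peak. Named are the snRNA genes with a peak, the snoRNA genes with a mock peak, the highest lipid-overload peaks at other snoRNA genes, machinery genes with peaks in both lists and, per list, up to 3 of the lipid-overload list only by −log10 q, and snoRNA genes with own promoters. The remaining marked snoRNA genes, the unmarked machinery genes and the start motif were added after their values were seen. The values of 1 marked snoRNA gene are not reported here. Members and lists were chosen with earlier results of these data known. Python 3.11.15, numpy 2.4.6, pandas 2.3.3, scipy 1.17.1 and matplotlib 3.10.9 were used.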

Additional observations from a re-analysis of the deposited data

How the results depend on the processing

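Counts by window overlap depended on the widening, the q-value and the list length. With no widening the counts were 3 (all, mock), 8 (all, lipid overload), 1 (RNU, mock), 4 (RNU, lipid overload), 2 (inside coding hosts) and 1 (outside). With 1 kb they were 65 (all, lipid overload) and 24 (inside coding hosts). With −log10 q of at least 5 they were 8 (all, mock), 27 (all, lipid overload), 2 (RNU, mock), 8 (RNU, lipid overload) and 3 (inside coding hosts). With the lipid-overload list at the mock length they were 24, 7 (RNU) and 2 (inside coding hosts). With fragments scaled by the depth ratio, 15 genes, 5 RNU genes, 1 inside coding hosts and 7 outside were counted. With the summit in the window, 6 outside coding hosts were counted. Without genes near a coding end, 11 (mock), 23 (lipid overload), 9 RNU genes and 2 outside coding hosts were counted. List length and depth do not apply to the mock counts. The alternatives for RNU genes in the mock list, and keeping only mock peaks of at least 5 fragments (15 genes, 7 RNU genes), were added after seeing the data. Merging overlapping windows, a looser host rule and other shuffling moved no count by over 1.5 times. Each group is 1 library, so no replicate could be left out. No paired analysis was possible because each group has 1 sample and the labels give no replicate numbers. At a median of 5 and 9 fragments per peak, a missing peak is not an absence of γH2AX.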
